A study of Mus musculus with 3 samples.

Results

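The S100 calcium-binding proteins were followed in the transcriptome of mouse bone marrow (BM) cells during treatment with LECT2. The 7 genes described here, S100a8, S100a9, S100a4, S100a6, S100a10, S100a11 and S100a13, were taken by their gene symbols from the 17250 gene names listed in the deposited tables. LECT2 (leukocyte cell-derived chemotaxin 2) is a secreted protein made mainly by the liver. Recombinant LECT2 produced in Chinese hamster ovary cells was given under the skin to male C57BL/6 mice of 6 to 8 weeks, at 300 μg per kg once a day. The 3 groups were mice at 0 days of treatment, mice treated for 3 days and mice treated for 5 days, each represented by 1 RNA-sequencing library. No vehicle injection is named for the 0-day library, and the number of mice behind a library is not given in the sources used here. BM was flushed with PBS from femur, tibia, pelvis and humerus, and no sorting is named, so each value is a mean over the cell types of the preparation. The labels and methods speak of flushed BM cells, whereas a legend of the study speaks of BM mononuclear cells, a fraction that holds few mature neutrophils, and which of these was sequenced is not settled by the sources used here. Lower RNA of a gene can come from fewer cells of a type or from less RNA per cell, and these cannot be told apart in such bulk libraries.

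S100 proteins are small proteins with a pair of EF-hands, the helix-loop-helix motifs that bind calcium. Most of them form dimers, and on binding calcium they expose a surface that holds partner proteins such as the annexins. S100A8 and S100A9 join to form calprotectin, which fills much of the cytosol of neutrophils and is also made by monocytes. Calprotectin binds zinc and manganese and thereby starves microbes of these metals, and when released from cells it can signal through Toll-like receptor 4 and RAGE. In the marrow, both genes are switched on as granulocytes mature. The other members are found in many cell types and act on the cytoskeleton, on membranes and on secretion.

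Reads counted on genes numbered 15523952, 15146983 and 15514673 at 0, 3 and 5 days. Levels are given as RPKM, reads scaled by gene length and library size, and differences as the log2 ratio of RPKM + 0.1. With 1 library per time point, no difference has a replicate check and no p-value was computed. The 95% intervals are exact (Clopper-Pearson) and cover counting error only, since reads amplified by PCR and lacking molecular identifiers do not each stand for a molecule. The 10 most abundant genes took 12.5%, 10.4% and 5.38% of the reads in the 3 libraries. The median log2 ratio of the 11144 genes that averaged 1 RPKM or more was 0.10 at 3 days and 0.31 at 5 days. TMM scaling, which takes most genes as unchanged and so centres the ratios near 0, gave 0.02 and 0.01. With totals outside the 100 most abundant genes, the median was 0.005 and 0.11. The ratios also rose with gene length: in the lowest decile of length, up to 1050 bases, the medians were −0.49 and −0.43, against 0.55 and 0.85 in the highest decile. All 7 S100 genes lie in the lowest decile, with lengths of 392 to 732 bases, so the main S100 ratios are also given with this trend, a smooth curve over all genes, subtracted. The cause of the length trend was not tested.

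S100a9 (gene ID 20202) and S100a8 (gene ID 20201) encode the subunits of calprotectin. In the mouse reference genome they are neighbours, with no other annotated gene between them, in a run of S100 genes on chromosome 3. Their promoters are shown because both genes had far more RNA than the other members and moved in the same direction between the libraries. The sequences are those of RefSeq on GRCm38.p6, 250 bases before and 50 bases after the annotated start, read 5′ to 3′ on the strand of the gene.
S100a8 promoter, chr3:90668821-90669120, plus strand: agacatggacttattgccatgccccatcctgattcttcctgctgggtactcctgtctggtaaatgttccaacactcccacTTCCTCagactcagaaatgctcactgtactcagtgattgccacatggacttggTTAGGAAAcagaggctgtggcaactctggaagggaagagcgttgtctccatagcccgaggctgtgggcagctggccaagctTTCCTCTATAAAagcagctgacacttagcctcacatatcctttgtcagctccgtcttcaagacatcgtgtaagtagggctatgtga
S100a9 promoter, chr3:90695672-90695971, minus strand: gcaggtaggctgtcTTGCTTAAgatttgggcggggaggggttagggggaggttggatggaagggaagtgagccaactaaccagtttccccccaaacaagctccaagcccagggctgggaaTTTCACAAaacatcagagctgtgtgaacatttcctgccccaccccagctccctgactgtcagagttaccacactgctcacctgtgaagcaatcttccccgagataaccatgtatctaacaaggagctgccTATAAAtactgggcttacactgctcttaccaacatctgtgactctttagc
The capitals mark matches, on either strand, to motifs of factors that act in granulocytes and of the core promoter. For C/EBP factors the letters searched were TTNNGNAA. For PU.1, a factor of all myeloid cells, they were GAGGAA. For the TATA box of the core promoter, to which the general machinery binds, they were TATAAA. The S100a8 window held 1 C/EBP match, 2 PU.1 matches and a TATA box at −30 bases, next to the second PU.1 match but not overlapping it. The S100a9 window held 2 C/EBP matches and no PU.1 match, and its TATA box began at the annotated start itself. Of 32851 mouse promoter windows of this length, 40.7% held the C/EBP letters, 28.3% the PU.1 letters and 13.6% the TATA box letters. These matches describe the letters only, and no binding was measured.

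S100a9 was measured at 61729, 44195 and 14032 RPKM after 0, 3 and 5 days. It had the highest RPKM of all genes in each of the 3 libraries, and its level was lower at each later time point. The log2 ratio was −0.48 (95% interval −0.49 to −0.48) at 3 days and −2.14 (−2.15 to −2.13) at 5 days, where 22.7% of the RPKM at 0 days was left, a 4.40-fold lower level. S100a8 had 28717, 23982 and 7789 RPKM in the 0-, 3- and 5-day libraries. By RPKM it was in place 2 at 0 and 3 days and in place 3 at 5 days. The log2 ratio of S100a8 was −0.26 (−0.27 to −0.25) at 3 days and −1.88 (−1.90 to −1.87) at 5 days, a 3.69-fold lower level. Thus the larger step for both genes lay between 3 and 5 days, where the log2 ratio was −1.66 for S100a9 and −1.62 for S100a8. At 5 days the lower levels held with TMM scaling (S100a9 −2.45, S100a8 −2.19) and with the length trend removed (−1.47 and −1.12). At 3 days the direction of both genes depended on the scaling: TMM gave −0.57 for S100a9 and −0.34 for S100a8, and removal of the length trend gave 0.14 and 0.41.

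**Figure D1:**
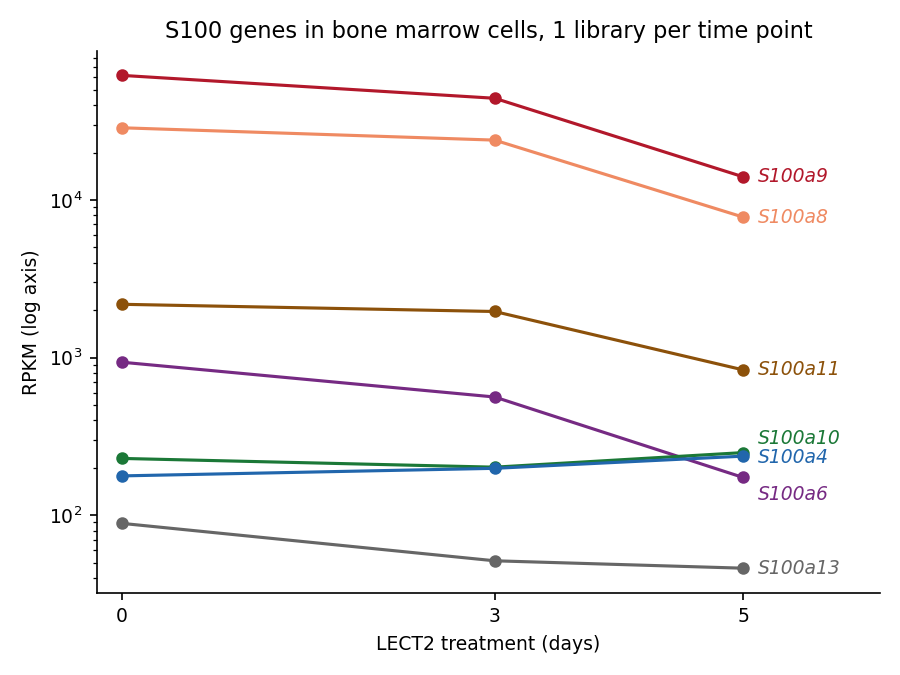
RPKM of the 7 S100 genes (log axis) against days of LECT2 treatment, with 1 point per library and lines joining the points of a gene. S100a9 and S100a8 lie highest at every time point and, with S100a11 and S100a6, drop between 3 and 5 days, whereas S100a4 and S100a10 end at 237 and 250 RPKM, above their values of 178 and 229 at 0 days (for S100a10, TMM scaling turns this direction).

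The reads taken by the calprotectin genes were a large part of each library. S100a9 held 467642, 326680 and 106238 reads after 0, 3 and 5 days, and S100a8 held 174755, 142393 and 47370. Together their share of all reads on genes was 4.14% (95% interval 4.13 to 4.15) before treatment, 3.10% (3.09 to 3.11) after 3 days and 0.990% (0.985 to 0.995) after 5 days. In other words, this pair gave 1 read in 24.2 before treatment, 1 in 32.3 after 3 days and 1 in 101 after 5 days. S100a9 alone made up 3.01%, 2.16% and 0.685% of the reads, and S100a8 1.13%, 0.940% and 0.305%. By reads, S100a9 was the first gene of the 0-day library, followed by Ngp, a secondary granule gene of neutrophils, and by Actb. Ngp was first at 3 and 5 days, where S100a9 was in places 2 and 3. S100a8 was in place 5 at 0 and 3 days and in place 8 at 5 days. Between 0 and 5 days the share of the pair changed by −3.15 percentage points, out of −7.12 points for the 10 most abundant genes. On its own, the lower share of the pair raises the RPKM of every other gene by 0.02 on the log2 scale at 3 days and by 0.05 at 5 days, less than the all-gene medians of 0.10 and 0.31.

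**Figure D2:**
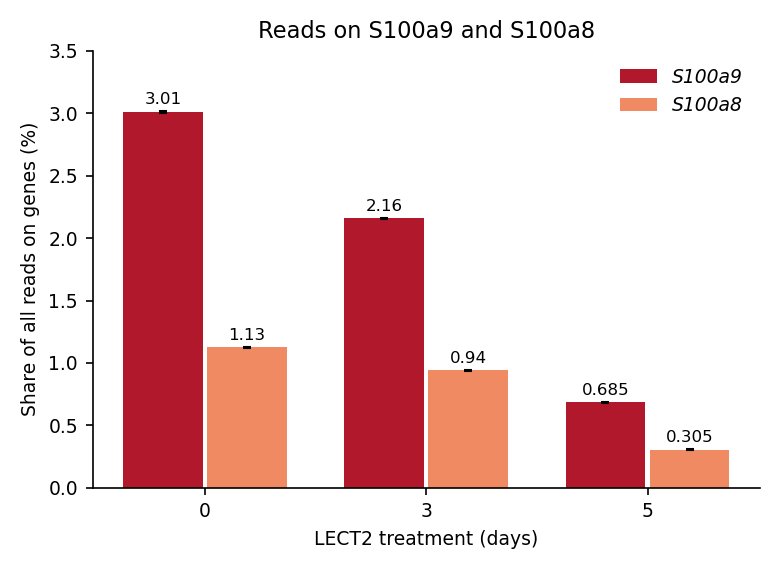
Share of all reads on genes (%) taken by S100a9 and S100a8 in the libraries of 0, 3 and 5 days of LECT2 (1 each), with exact 95% counting intervals as error bars. The S100a9 share goes from 3.01% to 2.16% and 0.685%, and the S100a8 share from 1.13% to 0.940% and 0.305%.

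The balance between the calprotectin subunits was measured within each library, where the scaling between libraries has no part. The length trend was not removed from this or the later within-library ratios. The paired genes differ in length, with 392 bases for S100a8 and 488 for S100a9. There were 0.374 S100a8 reads per S100a9 read before treatment (95% interval 0.372 to 0.376), 0.436 after 3 days (0.433 to 0.439) and 0.446 after 5 days (0.441 to 0.451). Per length, these ratios were 0.465, 0.543 and 0.555. The S100a8 ratio was therefore lowest at 0 days, and the counting intervals of the 3 libraries did not overlap, but the spread between mice is unknown. The other 5 members together held 0.208%, 0.166% and 0.0864% of the reads. S100a8 and S100a9 made up 95.2%, 94.9% and 92.0% of the reads of the 7 genes.

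S100a6 and S100a4 lie in the same run of S100 genes on chromosome 3, with S100a5 between them. S100A6 (calcyclin) is a protein of dividing and migrating cells, and S100A4 binds non-muscle myosin and is linked to cell motility. Their promoters are shown because these near neighbours moved apart.
S100a4 promoter, chr3:90603520-90603819, plus strand: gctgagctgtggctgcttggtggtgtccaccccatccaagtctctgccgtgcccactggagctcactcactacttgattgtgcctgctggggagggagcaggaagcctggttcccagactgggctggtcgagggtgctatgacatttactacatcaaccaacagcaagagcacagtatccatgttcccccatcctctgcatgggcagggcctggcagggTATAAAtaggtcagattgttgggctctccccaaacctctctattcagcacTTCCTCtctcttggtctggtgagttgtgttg
S100a6 promoter, chr3:90612644-90612943, plus strand: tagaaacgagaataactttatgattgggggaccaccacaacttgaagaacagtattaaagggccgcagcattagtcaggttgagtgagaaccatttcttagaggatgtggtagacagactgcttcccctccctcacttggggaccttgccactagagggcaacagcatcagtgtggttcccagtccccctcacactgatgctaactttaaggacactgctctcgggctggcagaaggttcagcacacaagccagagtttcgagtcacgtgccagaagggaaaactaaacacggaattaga
With the same motifs in capitals, the S100a4 window held a TATA box at −31 bases and 1 PU.1 match after the start. The S100a6 window held no match to any of the motifs searched, which says only that these letters are not in this window. Of the 6 member windows, with those of S100a11 and S100a13 not shown, 2 held the C/EBP letters, 3 the PU.1 letters and 3 the TATA box letters.

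S100a6 (gene ID 20200) was measured at 935, 562 and 174 RPKM after 0, 3 and 5 days, from 10435, 6126 and 1937 reads. Its level was lower at each step, and at 5 days 18.6% of the 0-day value was left, the lowest share of the 7 genes. The log2 ratio was −0.73 (−0.78 to −0.69) at 3 days and −2.43 (−2.50 to −2.36) at 5 days, a 5.38-fold lower level. S100a6 was lower under every scaling tried, with −0.82 and −2.74 under TMM and −0.24 and −1.99 with the length trend removed. S100a4 (gene ID 20198), in contrast, was measured at 178, 198 and 237 RPKM, from 1415, 1542 and 1887 reads. S100a4 was higher at both 3 and 5 days, with log2 ratios of 0.16 (0.05 to 0.26) and 0.42 (0.32 to 0.52). The size of the S100a4 difference depended on the scaling, at 0.08 and 0.11 under TMM and 0.77 and 1.06 with the length trend removed. Within a library, there were 7.37 S100a6 reads per S100a4 read before treatment (6.98 to 7.80), 3.97 after 3 days (3.76 to 4.20) and 1.03 after 5 days (0.963 to 1.09). Hence S100a6 went from far above S100a4 to about equal read numbers, and per length the ratio went from 5.26 to 2.83 and 0.732.

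S100a11 and S100a10 form a second group on chromosome 3, apart from the first. S100A11 takes part in membrane repair and binds annexin A1, and S100A10 (p11) binds annexin A2 and, unlike the other members, does not depend on calcium for it. S100a11 (gene ID 20195) was measured at 2179, 1961 and 836 RPKM after 0, 3 and 5 days, from 17051, 14974 and 6537 reads. It was close to its starting level at 3 days and lower at 5 days. The log2 ratio was −0.15 (−0.18 to −0.12) at 3 days, where removal of the length trend gave 0.46, and −1.38 (−1.42 to −1.34) at 5 days, a 2.61-fold lower level. At 5 days TMM gave −1.69 and removal of the length trend −0.73, so that the S100a11 difference was then below 2-fold. RefSeq lists a processed pseudogene of S100a11, and how reads shared with it were counted is not given in the sources used here. S100a10 (gene ID 20194) was measured at 229, 202 and 250 RPKM, from 2314, 1987 and 2518 reads. Its log2 ratios were −0.18 (−0.27 to −0.10) at 3 days and 0.12 (0.04 to 0.20) at 5 days, and neither direction held under every scaling. Removal of the length trend gave 0.35 and 0.62, and TMM gave −0.27 and −0.19. There were 7.37, 7.54 and 2.60 S100a11 reads per S100a10 read in the 0-, 3- and 5-day libraries. For S100a9 the number of reads per S100a10 read went from 202 to 164 and 42.2.

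S100a13 (gene ID 20196), in the same run of genes as S100a8 and S100a9, encodes a protein that helps to export fibroblast growth factor 1 and interleukin-1α, which lack a signal peptide. It was the lowest member in each library, at 88.8, 51.4 and 46.1 RPKM from 1009, 570 and 524 reads. With the deposited RPKM, the larger step of S100a13 lay before 3 days, with a log2 ratio of −0.79 (−0.94 to −0.64) at 3 days and −0.16 (−0.33 to 0.02) from 3 to 5 days. This depended on the length trend, since its removal gave −0.30 and −0.26, steps of like size. At 5 days against 0 days the log2 ratio was −0.94 (−1.10 to −0.79), a 1.92-fold lower level, which was −1.25 under TMM and −0.52 with the length trend removed. On GRCm38, S100a13 overlaps S100a1, on the opposite strand, by 98 bases, and since no strand is stated for the counting, reads from this stretch cannot be assigned to either. S100a1, best known from muscle, had 560, 387 and 536 reads (58.7, 41.5 and 56.2 RPKM), with log2 ratios of −0.50 at 3 days and −0.06 at 5 days that became 0.05 and 0.47 with the length trend removed.

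Of the 10 other S100 genes that the tables list, S100a1 was the only one that averaged 1 RPKM or more. S100a16 had 15, 5 and 3 reads at 0, 3 and 5 days, S100a3 12, 5 and 6, S100b, a glial gene, 7, 3 and 5, and S100a7a 3, 5 and 1. S100a14, S100a5, S100g, S100z and S100a2 had at most 3 reads in any library, and no fold is given for them. Tchh, an S100-fused-type gene of the hair follicle, had 3, 6 and 10 reads. In these libraries the family was thus represented by the 7 genes and S100a1, although in the reference order (RefSeq, GRCm38.p6) S100a13, S100a14, S100a16, S100a3, S100a2, S100a4, S100a5, S100a6, S100a7a, S100a8 and S100a9 follow each other with no other protein-coding gene between them. Genes of 88.8 to 61729 RPKM at 0 days hence stand beside genes with almost no reads.

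By RPKM, the order of the 7 genes at 0 days was S100a9, S100a8, S100a11, S100a6, S100a10, S100a4 and S100a13, and it was the same at 3 days. S100a9 stood 2.15-fold above S100a8, and S100a8 13.2-fold above S100a11. At 5 days S100a6 moved from the fourth to the sixth place, with an RPKM that was 0.695 of that of S100a10 (counting interval 0.655 to 0.738) after 4.08 times at 0 days. S100a10 and S100a4 did not differ beyond counting error at 3 days, where the ratio of their RPKM was 1.02 (0.951 to 1.09), or at 5 days, where it was 1.05 (0.992 to 1.12). At 0 days the ratio was 1.29 (1.21 to 1.38).

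At 3 days 6 of the 7 genes were below their 0-day level, S100a4 was above it, and 0 of 7 were at least 2-fold lower or higher. Of all genes that reached 1 RPKM in either library, 2.41% were at least 2-fold lower and 4.08% higher, and 11.5% of those in the lowest decile of length were lower. The median log2 ratio of the 7 was −0.26, against 0.10 for all genes and −0.49 for the short genes. With the length trend removed, the median of the 7 was 0.35, and S100a6 and S100a13 were the 2 genes below 0. The median of the S100 genes at 3 days was thus above that of other genes of like length.

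At 5 days 4 of the 7 genes were at least 2-fold lower than at 0 days, S100a6, S100a9, S100a8 and S100a11, and 0 were at least 2-fold higher. Of all genes, 5.91% were at least 2-fold lower and 15.5% higher, and of the short genes 18.9% were lower. The median of the 7 was −1.38, against 0.31 for all genes and −0.43 for the short genes. S100a6 (−2.43) and S100a9 (−2.14) lay below the 5th percentile of the short genes (−1.95), S100a8 (−1.88) lay just above it, and S100a4 (0.42) was within their 95th percentile (0.72). Under TMM 5 were at least 2-fold lower, with S100a13 added, and the median was −1.69. After removal of the length trend, 3 were lower (S100a6, S100a9 and S100a8), 1 was higher (S100a4), and the median was −0.73. Under the same removal, 782 of the 11144 genes that averaged 1 RPKM or more were at least 2-fold lower and 519 higher.

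From 3 to 5 days the same 4 genes were at least 2-fold lower and 0 were higher, with log2 ratios of −1.70 for S100a6, −1.66 for S100a9, −1.62 for S100a8 and −1.23 for S100a11 (−1.80, −1.68, −1.61 and −1.26 with the length trend removed). Of all genes, 3.45% were at least 2-fold lower and 1.95% higher in this comparison, and of the short genes 7.59% were lower. S100a10 (0.31) and S100a4 (0.26) lay close to the all-gene median of 0.25. With the length trend removed both were at 0.23, above the all-gene median of −0.002 under that removal. This comparison depended least on gene length, with medians of 0.09 for the short and 0.31 for the long genes, and the median of the 7 was −1.23, −1.45 under TMM and −1.26 with the length trend removed. The comparisons of 3 and 5 days share the 0-day or the 3-day library and are not independent of each other.

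**Figure D3:**
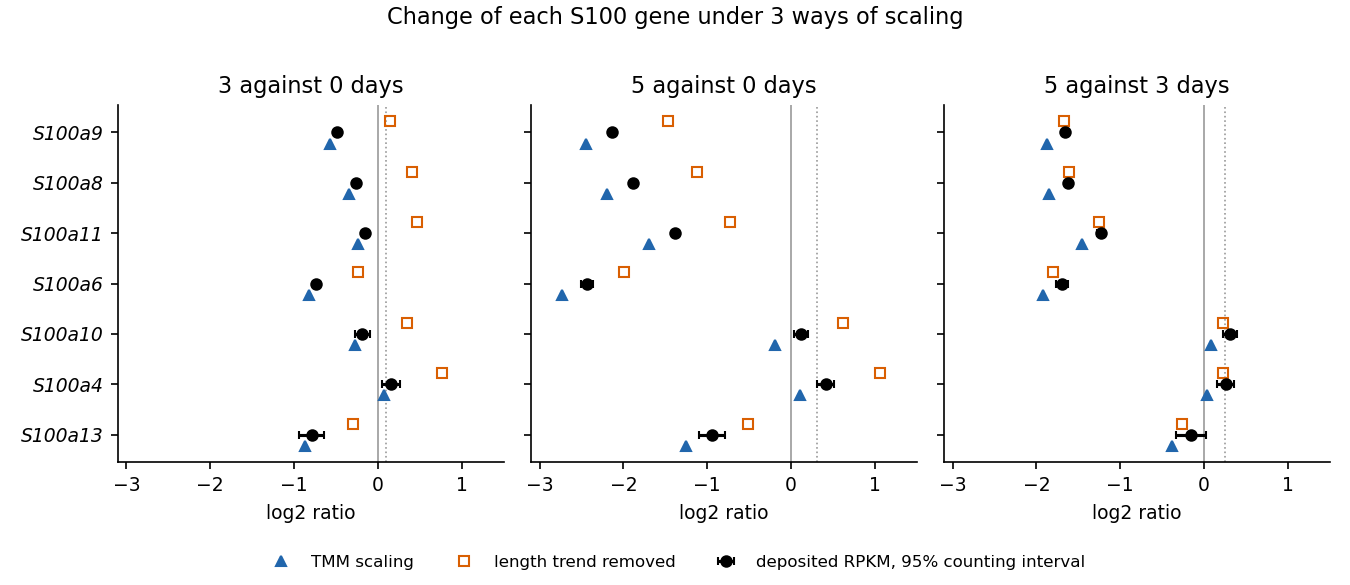
Log2 ratio of each S100 gene in the 3 comparisons from deposited RPKM (filled circles with 95% counting intervals), under TMM scaling (triangles) and with the length trend removed (open squares), with a dotted line at the median of all genes. S100a9, S100a8, S100a11 and S100a6 lie left of 0 at 5 days in all 3, whereas at 3 days the open squares of S100a9, S100a8, S100a11 and S100a10 lie right of 0.

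**Figure D4:**
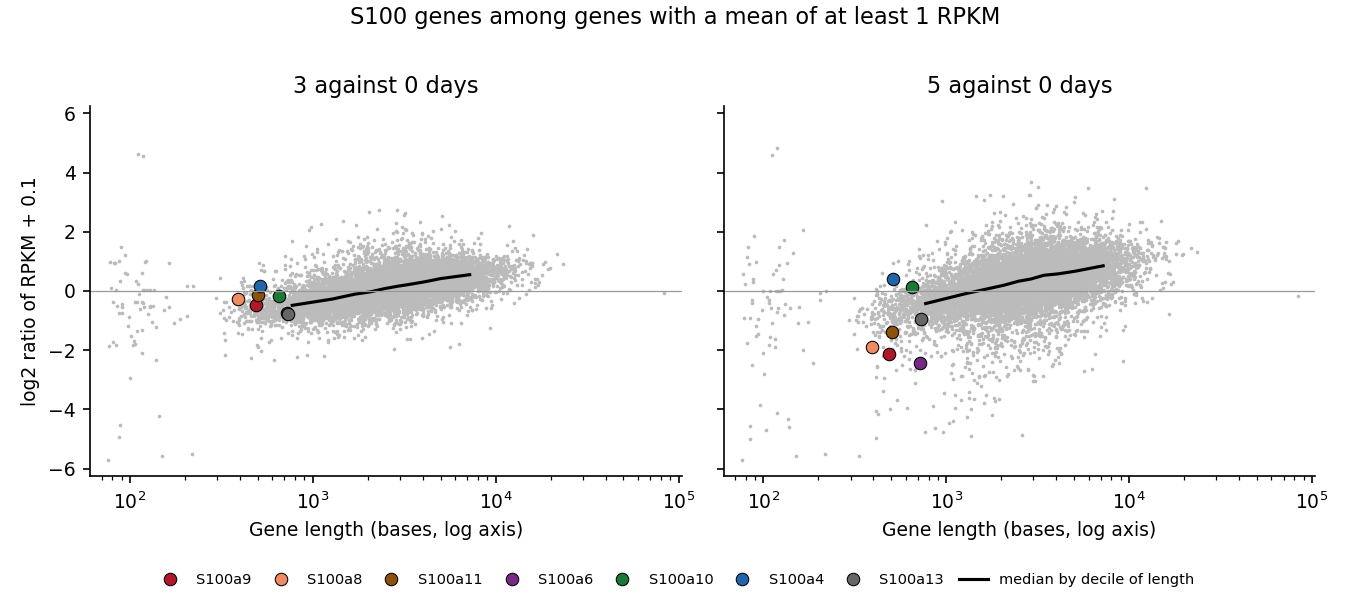
Log2 ratio of RPKM + 0.1 against gene length (log axis) for 11144 genes (grey points), the median of each decile of length (black line) and the 7 S100 genes (coloured), at 3 days (left) and 5 days (right). At 3 days the S100 genes lie around the values of other short genes, and at 5 days S100a6, S100a9, S100a8, S100a11 and S100a13 lie below the level of the line for short genes, from −2.43 to −0.94.

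Because calprotectin is carried mainly by neutrophils, the S100 genes were placed beside 11 genes of late neutrophils, most of which encode secondary and tertiary granule proteins or surface receptors. These had a summed level of 61397, 49550 and 20697 RPKM after 0, 3 and 5 days. At 5 days 9 of the 11 were at least 2-fold lower, with a median log2 ratio of −1.79 and a range of −4.00 (Il1r2) to −0.15 (Mmp25), and removal of the length trend gave a median of −1.75. Ngp went from 21998 to 21281 and 10391 RPKM, Lcn2 (lipocalin 2) from 10826 to 8085 and 3136, and Camp (cathelicidin) from 14235 to 7762 and 3609. At 5 days 8 of these markers had a higher ratio than S100a9 and 3 a lower one, which became 5 higher and 6 lower with the length trend removed. For S100a8, 7 markers were higher and 4 lower, which became 3 higher and 8 lower. The calprotectin ratios therefore lay inside the range of the late neutrophil markers either way, but their place in it turned with the length trend. This range is wide, and lying inside it was not particular to neutrophil markers. With the deposited RPKM both ratios also lay inside the ranges of the erythroid genes (−2.21 to 0.67) and of the osteolineage and stromal genes. With the trend removed, both stayed inside the erythroid range. They then lay above the osteolineage and stromal genes that averaged 1 RPKM or more. The ratios of S100a6 (8 higher, 3 lower) and S100a11 (4 higher, 7 lower) also lay inside the late neutrophil range either way, with 7 and 2 markers higher after the trend was removed. S100a13 was inside the range with the deposited RPKM (2 higher, 9 lower) and above all 11 markers after removal of the trend. S100a4 and S100a10 had higher ratios than all 11 markers at 5 days, both against 0 days and against 3 days, with and without the length trend. At 3 days the markers moved both ways, from −1.04 to 1.54 with a median of −0.10. The part of neutrophil number in the S100 values was not tested.

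Markers of other marrow cells also moved between the libraries. The 5 promyelocyte genes, most of which encode primary granule proteins, had a summed level of 2241, 2075 and 3619 RPKM. Their median log2 ratio was 0.45 at 5 days (0.14 under TMM). The ratios ran from 0.04 for Ms4a3 (−0.27 under TMM) to 1.51 for Mpo (myeloperoxidase, 1.20 under TMM). The 14 genes of monocytes and macrophages had a summed level of 1481, 1844 and 2427 RPKM, with 7 at least 2-fold higher and 0 lower at 5 days (5 and 0 under TMM). Monocytes express S100a4, S100a6, S100a10 and S100a11 as well as S100a8 and S100a9. At 5 days S100a6, S100a11, S100a8 and S100a9 were lower, S100a4 was higher, and the direction of S100a10 depended on the scaling. At 5 days the median of the 10 erythroid genes was −0.51 with 4 at least 2-fold lower, the 8 B cell genes −0.36 with 0 lower, the 8 T and NK cell genes −0.32 with 1 lower and the 5 megakaryocyte genes −0.05 with 0 lower. Under TMM these medians were −0.81, −0.67, −0.63 and −0.35, with 5, 1, 2 and 1 lower. Markers of osteolineage and stromal cells summed to only 50.2, 52.6 and 17.3 RPKM, with 5 of 5 at least 2-fold lower at 5 days. Ptprc (CD45), a gene of nearly all white blood cells, was at 0.949, 4.86 and 6.45 RPKM, far below Cd79a of B cells, which was at 827 RPKM at 0 days. The part of these cell types in the S100 values was not tested.

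For the partners of S100 proteins, the counts depended on the scaling. Of the 10 genes of annexins and Ahnak that averaged 1 RPKM or more, 1 was at least 2-fold lower and 1 at least 2-fold higher at 5 days, with a median of 0.11. Under TMM, 3 were lower (Anxa1, Anxa2 and Anxa3) and 1 higher, with a median of −0.20. Anxa1, the partner of S100A11, went from 1432 to 1390 and 593 RPKM (log2 ratio −0.04 at 3 days and −1.27 at 5 days, and 0.18 and −1.24 with the length trend removed). Anxa2, the partner of S100A10, went from 406 to 394 and 245 RPKM (−0.73 at 5 days), while S100a10 stayed between 202 and 250 RPKM. Anxa5 was measured at 125, 115 and 137 RPKM and Anxa11 at 106, 134 and 86.2. Ahnak, a very large protein held by S100A10 and annexin A2 at the membrane, was the one that was higher (1.63), a ratio of 0.46 with the length trend removed.

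Receptors and signalling genes for released calprotectin were far less abundant than calprotectin itself. Of the 9 that averaged 1 RPKM or more, 2 were at least 2-fold lower and 1 higher at 5 days, with a median of 0.13. Under TMM, 2 were lower and 0 higher, with a median of −0.18. Cd14, the co-receptor of Toll-like receptor 4, went from 148 to 99.3 and 36.9 RPKM (−1.99 at 5 days), and Mcam had a ratio of −1.29. Tlr4 itself went from 1.37 to 3.74 and 3.25 RPKM, with a ratio of 1.19 that was 0.89 under TMM and 0.63 with the length trend removed. Bsg (basigin, CD147) was measured at 144, 101 and 116 RPKM, Nptn (neuroplastin) at 55.7, 64.9 and 75.3 and Myd88, the adaptor below the Toll-like receptors, at 45.0, 49.1 and 44.0. Ager, which encodes RAGE, had 9, 6 and 2 reads.

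Of 23 other EF-hand genes, 1 was at least 2-fold lower and 2 higher at 5 days, and their median log2 ratio was −0.12. Under TMM, 3 were lower (Myl6, Cib1 and Pdcd6) and 0 higher, with a median of −0.43, and with the length trend removed 0 were lower or higher. The lower one was Myl6, a myosin light chain and the most abundant of them, at 1159, 693 and 435 RPKM (−1.41, and −0.92 with the length trend removed). The higher ones were Capn2 and Lcp1, the latter from a low level of 1.05, 2.91 and 2.51 RPKM (61, 165 and 146 reads). Calm2 (422, 346 and 376 RPKM) and the calpain subunit Capns1 (187, 193 and 191) stayed within narrower ranges. Of 9 transcription factor genes of the myeloid lineage, 0 were at least 2-fold lower or higher at 5 days, with a median of 0.10. Under TMM, 1 was lower (Cebpb), with a median of −0.20. The gene of PU.1, listed as Sfpi1, was measured at 193, 247 and 215 RPKM, and Irf8, a factor of monocytes, at 111, 113 and 172. Cebpb went from 153 to 143 and 90.7 RPKM (−0.76, and −1.06 under TMM), and Cebpe, a factor of late granulocytes, from 87.6 to 97.6 and 72.2 (−0.28).

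**Figure D5:**
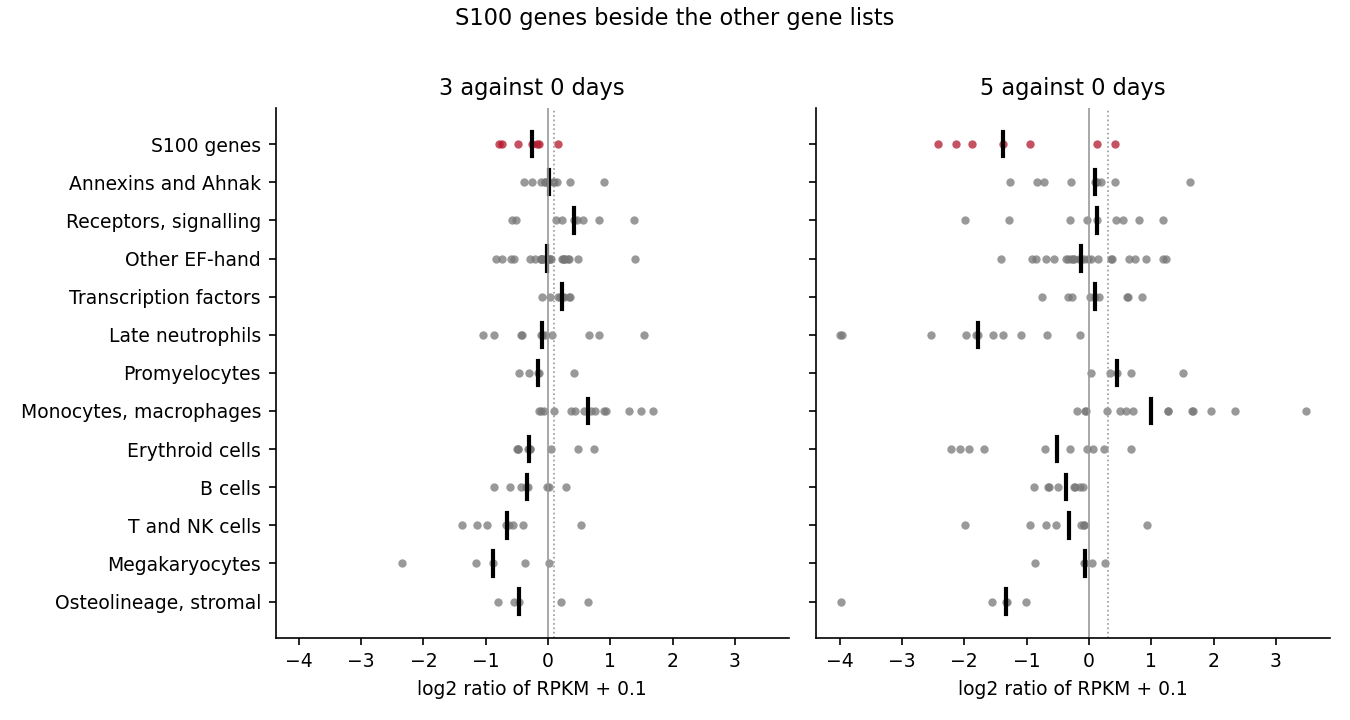
Log2 ratio of RPKM + 0.1 of single genes (points) and the median of each list (black bars) for the 7 S100 genes and 12 other gene lists, at 3 days (left) and 5 days (right), with a dotted line at the median of all genes. At 5 days the medians were −1.38 for the S100, −1.79 for the late neutrophil and −1.34 for the osteolineage and stromal genes, which became −0.73, −1.75 and −2.01 with the length trend removed.

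Finally, for each S100 gene the 3 genes with the most similar pair of log2 ratios (3 and 5 days against 0 days) were listed among 3920 genes that averaged 20 RPKM or more. These lists rest on the deposited RPKM without a correction for length, and a small distance over 3 libraries is a description and says nothing of shared control. For S100a8 these were Trib1, Ifitm6 and Nr4a1, and for S100a9 they were 1100001G20Rik, the haemoglobin gene Hba-a2 and Cd14. S100a11 was closest to the late neutrophil gene Ltf (lactoferrin), with Cd9 and Fcgr4 next. Ltf had log2 ratios of −0.12 and −1.37, against −0.15 and −1.38 for S100a11, but Ltf is a longer gene, and with the length trend removed the values were −0.25 and −1.75 against 0.46 and −0.73. S100a6 was closest to Dgat1, Gadd45b and Ccr7, and S100a13 to Mrps18c, Atp5e and Mrpl48, which encode mitochondrial proteins. S100a4 was closest to Mndal, Api5 and Gtpbp1, and S100a10 to Arl6ip5, Pecam1 and Smarce1. The nearest neighbours thus differed among the members, as did the distance. The first neighbour of S100a9 was at a Euclidean distance of 0.06, against 0.03 for S100a8, S100a6 and S100a11. The distance was 0.02 for S100a13, 0.007 for S100a4 and 0.004 for S100a10.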

How the data were processed

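BM cells of mice at 0, 3 and 5 days of LECT2 gave 1 library each, prepared from poly(A) RNA with a TruSeq RNA kit. In the 3 deposited tables, 1 per pair of time points, the authors give whole read counts per gene and the RPKM made from these counts. Their log2 ratios, P values and false discovery rates, which compare the reads of a pair of libraries, were not used. The methods name Cufflinks 1.0.3 and the submitters' processing notes the build mm8, whereas the aligner is not given in the sources used here. The deposited RPKM was the count over gene length and library total, apart from 18 and 14 genes at 0 and 3 days with at most 36 reads. Genes without reads, listed at 0.01, were set to 0. Of several entries for a name the one with the highest mean RPKM was kept.

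Log2 ratios used a pseudocount of 0.1, which understates the change of low genes. Genes at least 2-fold apart were counted where either library had at least 1 RPKM, and 3 reads or fewer were taken as the floor. Gene order and promoters came from RefSeq (GRCm38.p6), in which 6 of the 7 genes had a promoter entry, and no coordinates were moved between builds. Alternatives were pseudocounts of 1 and 0.01, TMM (edgeR 4.0.16), median-of-ratios (DESeq2 1.42.0), totals without the 100 most abundant genes or without S100a8 and S100a9, removal of the length trend (lowess, span 0.3, statsmodels 0.14.6), the sum of all entries, a minimum of 5 RPKM or none and folds of 1.5 and 4. Python 3.11.15 and R 4.3.3 were used, and the steps were tested on simulated data. The S100 genes and all lists were chosen with earlier results of these data known. The text names all 7 genes, other S100 genes with over 3 reads, the 4 most abundant genes of each partner list (1 of them is not reported here) and the 3 nearest genes in pattern, and other genes were named after their values were seen.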

Additional observations from a re-analysis of the deposited data

How the results depend on the processing

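Of the 21 log2 ratios of the S100 genes, 0 changed beyond their counting interval with a pseudocount of 1 or 0.01 or with the sum of all entries. Under TMM and median-of-ratios scaling and with totals outside the 100 most abundant genes, 17 changed beyond it in each case, all downward, and 1 more changed sign: S100a10 at 5 days, from 0.12 to −0.19, −0.17 and −0.079. With the length trend removed, S100a8, S100a9, S100a10 and S100a11 changed sign at 3 days, to 0.41, 0.14, 0.35 and 0.46, and 12 others changed beyond the interval. The cause was not tested. With totals that leave out S100a8 and S100a9, 7 changed and 0 changed sign. At a fold of 1.5, 2 genes instead of 0 were lower at 3 days. At a fold of 4, 2 were lower at 5 days against 0 days and 0 against 3 days. The shares of all genes and of short genes at folds of 1.5 and 4 are not given here, so these counts cannot be weighed. With the length trend removed, 1 was at least 2-fold higher at 5 days. The share of S100a8 and S100a9 was 5.22%, 3.71% and 1.13% at 0, 3 and 5 days outside the 98 other most abundant genes and 14.1%, 12.5% and 4.63% of the summed RPKM, and their ratio was 0.465, 0.543 and 0.555 as RPKM. Among the genes that averaged 1 RPKM or more, 73.6% of those that changed 2-fold at 5 days were higher with the deposited RPKM and 42.4% under TMM, 66.0% and 52.5% at 3 days, and 33.2% and 8.58% from 3 to 5 days. At 5 days against 0 days, 603 genes were at least 2-fold lower and 1685 higher with the deposited RPKM, against 1042 and 767 under TMM. No paired analysis was possible because each time point has 1 library. Depth limits the S100 genes with few reads and S100a13 from 3 to 5 days, whose counting interval spans 0, and with no replicate the spread between mice is unknown.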
